A study of Rattus norvegicus with 6 samples.

Results

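The transcripts described here are those of the 6 mitochondrially encoded genes for subunits of respiratory chain complexes III, IV and V, out of 21986 genes in a table of rat kidney RNA. They were chosen by a fixed list of Ensembl identifiers: Mt-cyb (ENSRNOG00000031766), Mt-co1 (ENSRNOG00000034234), Mt-co2 (ENSRNOG00000030371), Mt-co3 (ENSRNOG00000030700), Mt-atp6 (ENSRNOG00000031979) and Mt-atp8 (ENSRNOG00000033299). The table places all 6 on chromosome MT, beside 31 other genes, and gives no symbols, so the symbols come with the list and could not be checked in the table. Kidneys of 3 control and 3 FSGS samples were compared; FSGS, focal segmental glomerulosclerosis, is scarring of parts of the kidney's filtering units. All samples were labelled wild type and came from male Wistar rats of an age not given in the sources used here. FSGS rats had the left kidney removed in the first week. On postoperative day 7 they were given 5 mg/kg of adriamycin, an anthracycline drug, through the tail vein, followed by 3 mg/kg on day 28. Control rats were injected with saline and are not said to have been operated on, which means that nephrectomy and drug cannot be told apart. The titles also call every sample untreated; groups follow the group name in the titles. It is not stated whether libraries came from different animals. The p-values therefore measure only how these samples spread, and part of that spread may be technical.

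The mitochondrial genome is a small circle of DNA inside the organelle, and it encodes a few core subunits of the respiratory chain while the nucleus encodes the rest. Complex III passes electrons from ubiquinol to cytochrome c, complex IV passes them on to oxygen, and complex V, the ATP synthase, uses the proton gradient built by the chain to make ATP. All 6 transcripts are cut from long precursor RNA of the same mitochondrial strand. Kidney tubule cells are rich in mitochondria, because salt and nutrient reabsorption uses much ATP. Nuclear partners of these subunits and kidney cell type markers were not analysed here, since their identifiers were not paired with names. In RNA from whole kidney, fewer cells of a type and less RNA per cell cannot be told apart.

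The values are FPKM, fragments scaled by gene length and by the mapped fragments of the library, which allow levels of different genes to be compared per length. The 6 transcripts held ranks 1 to 6 of all 21986 genes in each of the 6 libraries. The least abundant of them, Mt-cyb, was 3.15 to 5.91 times as high as the most abundant nuclear gene of the same library. Read counts are not part of the table, so the depth behind these values is unknown and they carry no counting interval.

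Complex III has 1 mitochondrially encoded subunit, cytochrome b, which carries the haem groups and the quinone-binding sites. Mt-cyb stood at 23653, 25804 and 30512 FPKM in control replicates 1, 2 and 3, and at 30593, 34962 and 36762 FPKM in FSGS replicates 1, 2 and 3. The lowest FSGS library lay just above the highest control library, by a factor of 1.003. The group means of FPKM were 26656 ± 3508 and 34106 ± 3173 (SD, n = 3 each), a ratio of 1.28. The log2 change, FSGS minus control on the log2(FPKM + 1) scale, was 0.36 ± 0.21 (SE), and the gene did not pass limma's test (Benjamini-Hochberg adjusted p = 0.195 over all genes tested).

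Complex IV, cytochrome c oxidase, has 3 mitochondrially encoded subunits that form its catalytic core. Mt-co1 encodes subunit I, which holds the site where oxygen is reduced, and it was the most abundant transcript of every library. It stood at 54837, 61147 and 78657 FPKM in control replicates 1, 2 and 3, and at 105601, 109321 and 127637 FPKM in FSGS replicates 1, 2 and 3. The groups did not overlap, and the lowest FSGS library was 1.34 times the highest control library. Mt-co1 rose from a mean of 64880 ± 12341 to 114186 ± 11796 FPKM (SD, n = 3 each), a ratio of 1.76 (log2 change 0.83 ± 0.24 SE, limma adjusted p = 0.0236).

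Mt-co2 encodes subunit II, which takes up electrons from cytochrome c. It stood at 34016, 40060 and 49607 FPKM in control replicates 1, 2 and 3, and at 63400, 73079 and 76885 FPKM in FSGS replicates 1, 2 and 3. The groups did not overlap, and Mt-co2 rose from 41228 ± 7861 to 71121 ± 6952 FPKM (SD, n = 3 each), a ratio of 1.73 (log2 change 0.80 ± 0.24 SE, limma adjusted p = 0.0233). Mt-co3 encodes subunit III, which lies beside the catalytic subunits without redox centres of its own. It stood at 33349, 38693 and 50967 FPKM in control replicates 1, 2 and 3, and at 54255, 63826 and 67127 FPKM in FSGS replicates 1, 2 and 3. The groups of Mt-co3 did not overlap either, but control replicate 3 came close to FSGS replicate 1. The means were 41003 ± 9034 and 61736 ± 6686 FPKM (SD, n = 3 each), a ratio of 1.51, and the gene missed the threshold (log2 change 0.61 ± 0.24 SE, limma adjusted p = 0.0712). Without control replicate 3 it passed, at a log2 change of 0.78 and limma adjusted p = 0.0246.

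Complex V has 2 mitochondrially encoded subunits, both in the membrane part of the enzyme. Mt-atp6 encodes subunit a, which forms part of the proton path, and Mt-atp8 encodes a small subunit of the stalk region. Their reading frames overlap on the mitochondrial genome and share a messenger RNA. How fragments from the overlap were assigned to each gene is not given in the sources used here, so the values of both carry that uncertainty. Mt-atp6 and Mt-atp8 are counted here as 2 transcripts by their gene entries, though their FPKM were read along the same messenger RNA.

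Mt-atp6 stood at 41883, 48093 and 58165 FPKM in control replicates 1, 2 and 3, and at 52027, 59702 and 65729 FPKM in FSGS replicates 1, 2 and 3. It was the 1 member whose groups overlapped, since control replicate 3 lay above FSGS replicate 1. The means were 49380 ± 8217 and 59153 ± 6868 FPKM (SD, n = 3 each), a ratio of 1.20 (log2 change 0.27 ± 0.23 SE, limma adjusted p = 0.380). Mt-atp8 stood at 41493, 44859 and 56704 FPKM in control replicates 1, 2 and 3, and at 68983, 83155 and 85455 FPKM in FSGS replicates 1, 2 and 3. Its groups did not overlap, and it rose from 47685 ± 7989 to 79198 ± 8920 FPKM (SD, n = 3 each), a ratio of 1.66 (log2 change 0.74 ± 0.23 SE, limma adjusted p = 0.0314). The FPKM of the 2 complex V genes, which share a messenger RNA, thus stood at similar levels in controls and apart in FSGS.

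**Figure D1:**
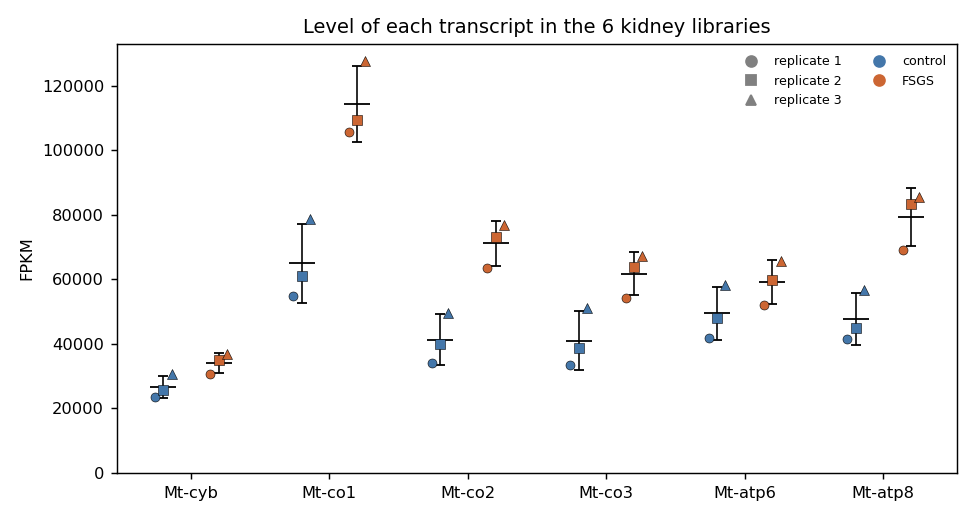
FPKM of each transcript in the 3 control (blue) and 3 FSGS (orange) libraries. Each symbol is 1 library, and the bar with whiskers is the group mean ± SD; Mt-co1 ran from 54837 to 78657 FPKM in controls and from 105601 to 127637 in FSGS, while the groups of Mt-atp6 overlapped.

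By limma, 3 of the 6 transcripts rose (Mt-co1, Mt-co2 and Mt-atp8), against 27.0% of the 14139 genes tested, and 0 fell, against 17.0%. At an unadjusted p under 0.05, 4 rose and 0 fell, but the share of all genes at that bound was not counted. The counts at the unadjusted bound are therefore not read as a result about the 6. The 3 FSGS values lay above the 3 control values in 5 of the 6, against 34.6% of all genes tested. The median log2 change was 0.67 over the 6 and 0.11 over all genes tested. Over the other 31 genes of chromosome MT, 14 rose and 1 fell by limma, and the median log2 change was 0.46. The 6 transcripts come from the same precursor and the same libraries, so they are not independent of each other. The count of 3 was not stable: without FSGS replicate 2 it was 0, without FSGS replicate 3 it was 0, and at an unadjusted p under 0.05 it was 2 in each case. The call of Mt-co1 was also lost without FSGS replicate 1 (limma adjusted p = 0.0532), and that of Mt-atp8 without control replicate 1 (limma adjusted p = 0.0599) or control replicate 2 (limma adjusted p = 0.0608).

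The calls on FPKM also depended on how the columns were scaled. Over all genes tested, the median log2 change was 0.11 for the deposited values, 0.0067 with median-of-ratios scaling, -0.12 after rescaling to TPM and 0.23 after rescaling to the summed FPKM of nuclear genes. Among all genes called, 61.3% were higher in FSGS as deposited, while the 3 rescalings gave 49.8%, 38.7% and 72.1% in turn. The median of the 6 transcripts was 0.67, 0.54, 0.39 and 0.83, and so lay above that of all genes under each of these scalings. The number that rose was 3, 0, 3 and 0, and where it was 0 by limma it was also 0 at an unadjusted p under 0.05. Of the 14139 genes tested, limma called 6222, 6948, 5203 and 8021 in turn, so more calls over all genes did not bring more among the 6. The estimate of Mt-co1 was 0.83 ± 0.24, 0.69 ± 0.56, 0.54 ± 0.15 and 0.98 ± 0.57 (SE) in turn. Where Mt-co1 was not called its SE was larger, and its estimate was still above 0. All 6 estimates were above 0 under these scalings except Mt-atp6 after rescaling to TPM (-0.02), and quantile normalization, which sets values by rank, gave -0.36 for Mt-atp6 and 0 for Mt-co1 and Mt-cyb. Rescaled to TPM, Mt-co1 changed by 0.54 (limma adjusted p = 0.0131), Mt-co2 by 0.51 (limma adjusted p = 0.0191) and Mt-atp8 by 0.45 (limma adjusted p = 0.0326) on the log2 scale.

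The 6 transcripts moved together from library to library within a group. Every one of them was lowest in replicate 1 and highest in replicate 3 of its group. After the group means were removed, the Pearson correlation between pairs of transcripts over the 6 libraries was 0.915 to 0.996. This is a description, since the values share library and total. Their spread within groups was larger in controls, with a coefficient of variation of 13.2% for Mt-cyb to 22.0% for Mt-co3, than in FSGS, with 9.30% for Mt-cyb to 11.6% for Mt-atp6; the difference in spread was not tested.

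Added up, the 6 transcripts made up a larger part of the FSGS libraries, while the other mitochondrial genes took parts that overlapped between the groups. The 6 took 37.3%, 40.2% and 46.9% of summed FPKM in control replicates 1, 2 and 3, and 49.7%, 53.2% and 55.7% in FSGS replicates 1, 2 and 3. The groups did not overlap, with means of 41.5% ± 4.92 and 52.9% ± 3.06 (SD; n = 3 each). The two-sided exact permutation test gave p = 0.1, the smallest value that 3 against 3 samples can give. The other 31 genes of chromosome MT took 14.2%, 14.7% and 16.0% in controls and 14.4%, 15.2% and 16.0% in FSGS. Their means were 15.0% ± 0.916 and 15.2% ± 0.804 (SD; n = 3 each), which did not differ beyond their spread (exact permutation test, two-sided, p = 0.8). Because FPKM is scaled by length, these shares are not shares of sequenced reads.

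The same sums can be read in FPKM. The mean column total was higher in FSGS by 142445 FPKM, the mean of the 6 transcripts by 148667 FPKM, and that of the other 31 by 22702 FPKM. The nuclear genes summed to 281191 ± 21778 FPKM in controls and 252267 ± 19231 FPKM in FSGS (SD, n = 3 each), and these groups overlapped. Mt-co1 alone accounted for 49306 FPKM of the difference, Mt-atp8 for 31512, Mt-co2 for 29894, Mt-co3 for 20733, Mt-atp6 for 9773 and Mt-cyb for 7449. Each FSGS library held more FPKM in these 6 genes than any control library, at 374859 to 459595 against 229231 to 324612.

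**Figure D2:**
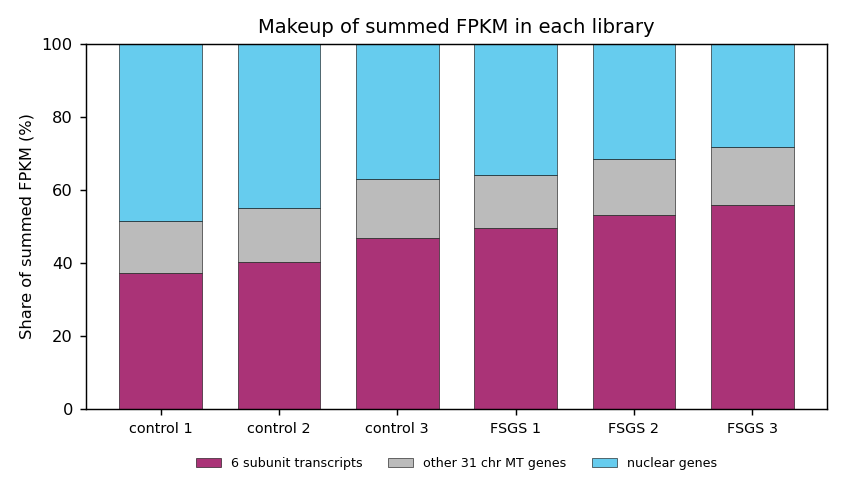
Share of summed FPKM, in percent, taken by the 6 subunit transcripts, the other 31 chromosome MT genes and the nuclear genes in each library. The 6 transcripts took 37.3% to 46.9% in controls and 49.7% to 55.7% in FSGS, while the other mitochondrial genes stayed between 14.2% and 16.0%.

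Next, each transcript was expressed as a share of the summed FPKM of chromosome MT, which removes any factor common to all mitochondrial genes of a library. These shares add up to 100% over the 37 genes, so a rise in 1 lowers the others. Directions in the next 2 paragraphs are relative to that sum; relative to the median mitochondrial gene of a library, the estimates of all 6 were below 0. Together the 6 took 72.4%, 73.2% and 74.6% in control replicates 1, 2 and 3, and 77.6%, 77.8% and 77.7% in FSGS replicates 1, 2 and 3. The FSGS libraries lay close together and all above the controls, with means of 73.4% ± 1.09 and 77.7% ± 0.126 (SD; n = 3 each; exact permutation test, two-sided, p = 0.1, the lowest reachable value). A fit over the 37 genes by limma, on log2 shares with adjustment over these 37, called 3 of the 6 higher, against 32.4% of the 37, and 2 lower, against 24.3%. By overlap alone, 3 of the 6 were higher in every FSGS library, against 32.4% of the 37, and 2 were lower in every FSGS library, against 29.7%. The 37 include the 6, and of the other 31 limma called 9 higher and 7 lower. With only 6 genes, these counts are not read as particular to them.

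The 3 complex IV transcripts did not behave alike on this scale. Mt-co1 took 17.3%, 17.3% and 18.1% of mitochondrial FPKM in control replicates 1, 2 and 3, and 21.9%, 20.1% and 21.6% in FSGS replicates 1, 2 and 3. Its share rose without overlap (log2 change of the share 0.27 ± 0.06 SE, limma adjusted p = 0.0138). Mt-co2 rose from 10.7%, 11.3% and 11.4% to 13.1%, 13.4% and 13.0% (log2 change of the share 0.24 ± 0.06 SE, limma adjusted p = 0.0138). Both calls were lost without control replicate 2 (limma adjusted p = 0.0603 for Mt-co1 and 0.0553 for Mt-co2) and without FSGS replicate 3 (limma adjusted p = 0.0590 for each). Mt-co3 stood at 10.5%, 10.9% and 11.7% in controls and at 11.2%, 11.7% and 11.4% in FSGS, so its groups overlapped. Its log2 change of the share was 0.05 with a 95% interval of -0.11 to 0.21 (limma adjusted p = 0.526).

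The FPKM of the 2 complex V genes, which share a messenger RNA, went opposite ways relative to the mitochondrial sum. Mt-atp6 fell from 13.2%, 13.6% and 13.4% of mitochondrial FPKM in control replicates 1, 2 and 3 to 10.8%, 11.0% and 11.1% in FSGS replicates 1, 2 and 3 (log2 change of the share -0.29 ± 0.05 SE, limma adjusted p = 0.00868). Every FSGS library was below every control library, and the call held without each library in turn, while the size of the fall depended on the denominator. Mt-atp8 rose from 13.1%, 12.7% and 13.0% to 14.3%, 15.3% and 14.5% (log2 change of the share 0.18 ± 0.06 SE, limma adjusted p = 0.0395). Its groups did not overlap, but the call was lost without any 1 of the 6 libraries, at limma adjusted p = 0.0591 to 0.146. Mt-cyb of complex III fell from 7.47%, 7.30% and 7.01% to 6.33%, 6.42% and 6.22%, again without overlap (log2 change of the share -0.20 ± 0.06 SE, limma adjusted p = 0.0253). Its call held without control replicate 3 and was lost without each of the other 5 libraries, with limma adjusted p = 0.0292 to 0.115 over all 6 omissions.

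**Figure D3:**
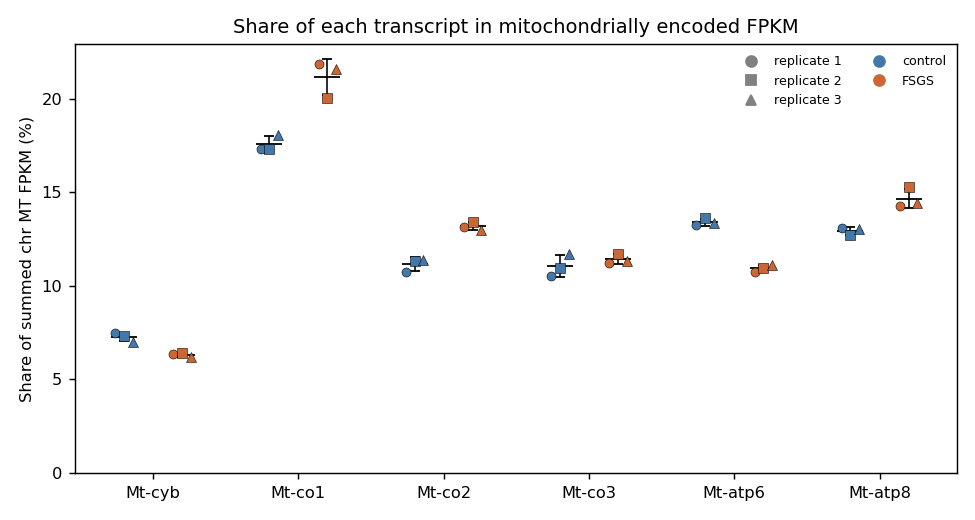
Share of each transcript in the summed FPKM of chromosome MT, in percent, by library, with the group mean ± SD. Mt-atp6 stood at 13.2% to 13.6% in controls and 10.8% to 11.1% in FSGS, while Mt-atp8 stood at 12.7% to 13.1% and 14.3% to 15.3%.

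The direction of a share depends on what it is a share of. Mt-cyb fell as a share of mitochondrial FPKM (two-sided exact permutation p = 0.1). Its log2 change was 0.055 relative to the other 31 mitochondrial genes summed (exact p = 0.1). As a share of all genes it was 0.073 (exact p = 0.3). For Mt-atp6 the log2 change of -0.29 shrank to -0.037 relative to the other 31 genes (two-sided exact permutation p = 0.5) and to -0.020 as a share of all genes (exact p = 1). For Mt-co3 it was 0.05 relative to the mitochondrial sum and 0.30 relative to the other 31 genes (exact p = 0.1). Relative to the median mitochondrial gene, the estimates ran from -0.24 for Mt-co1 to -0.80 for Mt-atp6. In that fit Mt-atp6 (limma adjusted p = 0.00451) and Mt-cyb (log2 change -0.71, limma adjusted p = 0.0108) passed the threshold, and the other 4 did not, with limma adjusted p = 0.0922 to 0.375. The sum of mitochondrial FPKM is set by a few abundant genes, while the median is set by the many genes of low abundance, whose largest log2 change in FPKM was 2.16. The table does not name these genes, and they were not split into messenger RNAs and other kinds.

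**Figure D4:**
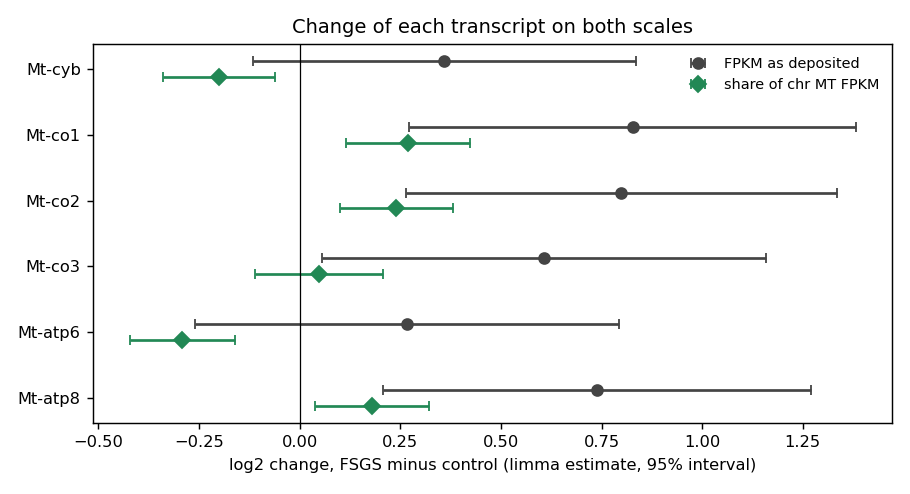
Log2 change, FSGS minus control, of each transcript as deposited FPKM (circles) and as a share of chromosome MT FPKM (diamonds), with 95% intervals from limma. Mt-cyb and Mt-atp6 lie above 0 as FPKM, at 0.36 and 0.27, and below 0 as a share, at -0.20 and -0.29.

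The other abundant mitochondrial genes served as a comparison. Besides the 6, 8 genes of chromosome MT averaged 2000 FPKM or more. Their highest group mean was 21773 FPKM, below the group means of Mt-cyb, at 26656 FPKM in controls and 34106 FPKM in FSGS. Of these 8, 0 rose and 1 fell by limma on FPKM, with a median log2 change of 0.30. The lack of rises held only above this bound, since 14 of all 31 other mitochondrial genes rose. A rise in FPKM was therefore not particular to the 6 among all mitochondrial genes, though 0 of these 8 abundant genes rose. The table does not name the 31, so they were not split into messenger RNAs and other kinds of gene. They need not all be transcripts like the 6. As shares of mitochondrial FPKM all 8 had estimates below 0, with a median log2 change of -0.26, and 4 of them fell. The ratio of the 6 summed to the other 31 summed was higher in FSGS by 0.34 on the log2 scale (exact permutation test, two-sided, p = 0.1, the lowest reachable value).

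Ratios between 2 transcripts of the same library do not depend on how the column was scaled, so they show how the FPKM of the 6 moved against each other. They can still carry differences in how RNA was captured and fragments were assigned, so they are not by themselves ratios of transcript amounts. Of the 15 pairs, 11 (73.3%) had ratios that did not overlap between the groups, each with a two-sided exact permutation p = 0.1 and 0.136 after Benjamini-Hochberg adjustment over the 15. Over all 666 pairs of the 37 mitochondrial genes 60.2% did not overlap, and over the 91 pairs of the 14 genes at 2000 FPKM or more 76.9% did not, so a share of this size is not particular to the 6.

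Mt-atp8 over Mt-atp6, the pair from 1 shared messenger RNA, was 0.991, 0.933 and 0.975 in control replicates 1, 2 and 3, and 1.33, 1.39 and 1.30 in FSGS replicates 1, 2 and 3. The ratio thus lay below 1 in every control and above 1 in every FSGS library, with means of 0.966 ± 0.030 and 1.34 ± 0.048 (SD, n = 3 each). As the log2 ratio of Mt-atp6 to Mt-atp8 the difference between groups was -0.47, and it was -0.49 to -0.44 without each library in turn. The pooled SD of this log2 ratio within groups was 0.048. Because both genes are read along 1 messenger RNA, this is a difference in FPKM and is not read as 2 transcripts moving apart.

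Mt-co1 over Mt-atp6 showed the largest difference of the 15 pairs. It was 1.31, 1.27 and 1.35 in control replicates 1, 2 and 3, and 2.03, 1.83 and 1.94 in FSGS replicates 1, 2 and 3, a difference of 0.56 on the log2 scale. Mt-co1 over Mt-cyb was 2.32, 2.37 and 2.58 in controls and 3.45, 3.13 and 3.47 in FSGS. Mt-co1 over Mt-co3 rose less, from 1.59 ± 0.051 to 1.85 ± 0.124 (SD, n = 3 each). In FPKM, the catalytic subunit transcript Mt-co1 thus gained on Mt-cyb, Mt-co3 and Mt-atp6 in every FSGS library.

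In 4 pairs the groups overlapped. Mt-co1 over Mt-co2 was 1.57 ± 0.044 in controls and 1.61 ± 0.096 in FSGS (SD; n = 3 each; log2 difference 0.03, exact permutation p = 0.6, two-sided). Mt-co2 over Mt-atp8 was 0.863 ± 0.038 and 0.899 ± 0.020 (log2 difference 0.06, exact p = 0.2), and Mt-co1 to Mt-atp8 differed by 0.09 on the log2 scale (exact p = 0.4). Mt-cyb over Mt-atp6 was 0.542 ± 0.021 and 0.578 ± 0.016 (log2 difference 0.09, exact p = 0.2). The 6 therefore fell by size of change into Mt-co1, Mt-co2 and Mt-atp8 on 1 side and Mt-cyb and Mt-atp6 on the other, with Mt-co3 between them. This grouping was read from the values and has no test of its own, and it did not follow the complexes. Mt-atp6 and Mt-atp8 share a messenger RNA, so the split of complex V carries the uncertainty about fragments from their overlap.

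**Figure D5:**
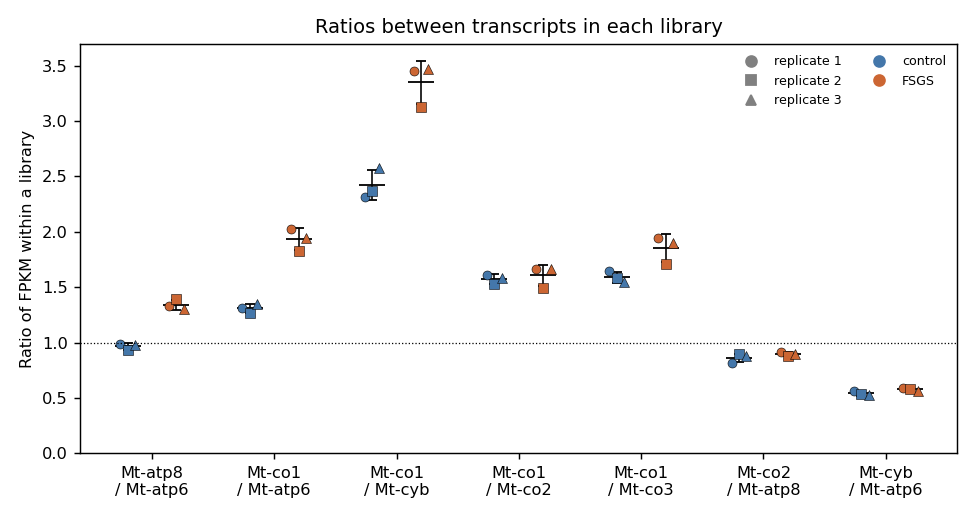
Ratios of FPKM between pairs of transcripts within each library, with the group mean ± SD; the dotted line marks a ratio of 1. Mt-atp8 over Mt-atp6 crossed from 0.933 to 0.991 in controls to 1.30 to 1.39 in FSGS, while Mt-co1 over Mt-co2 overlapped between the groups.

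The order of levels changed with these ratios. In controls it ran Mt-co1, Mt-atp6, Mt-atp8, Mt-co2, Mt-co3 and Mt-cyb by mean FPKM. The ranges over libraries overlapped between all neighbours in that order except Mt-co3 and Mt-cyb, yet within each library the order held in 3 of 3 for every neighbouring pair but Mt-co2 and Mt-co3, where it held in 2 of 3. In FSGS it ran Mt-co1, Mt-atp8, Mt-co2, Mt-co3, Mt-atp6 and Mt-cyb, and it held in 3 of 3 libraries for every neighbouring pair. There the ranges did not overlap between Mt-co1 and Mt-atp8 or between Mt-atp6 and Mt-cyb. Mt-atp6 ranked 2 of all genes in the 3 controls and 5 in the 3 FSGS libraries.

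Among 7646 genes averaging at least 5 FPKM, those most like the summed level of the 6 were sought by Pearson correlation over the 6 libraries, as a description. Mt-co2 (r = 0.996), Mt-atp8 (r = 0.994) and Mt-co3 (r = 0.994) came first, and Mt-atp6 was the least alike of the 6 (r = 0.913, rank 64). Each of the 6 is part of that sum. The 2 most alike genes outside it were ENSRNOG00000029971 on chromosome MT and ENSRNOG00000014798 on chromosome 3 (r = 0.992 each), which the table does not name. The first stood at 6577, 6751 and 7928 FPKM in controls and 8938, 9999 and 10300 FPKM in FSGS, and the second at 6.51, 7.24 and 8.46 FPKM and at 9.97, 10.2 and 11.5 FPKM.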

How the data were processed

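Whole-kidney RNA of 3 control and 3 FSGS samples was purified on oligo(dT) beads, which keep polyadenylated RNA, and made into dUTP-stranded paired-end libraries, per the labels' protocols. Mitochondrial messenger RNAs carry short poly(A) tails, so capture can differ between them. HISAT2 2.2.1, StringTie 2.1.6, cutadapt 1.9, edgeR and DESeq2 are named in the submitters' processing notes, without roles. The build, the annotation and the handling of overlapping genes are not given in the sources used here. Per the file headers, the authors deposited FPKM, that is, fragments relative to gene length and to all mapped fragments, with at most 2 decimals. An FPKM is relative to the library total, so abundant transcripts lower the others.

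Of 21986 genes, the 14139 averaging 0.5 FPKM or more over the libraries entered a limma 3.58.1 fit (R 4.3.3) of log2(FPKM + 1) on group, with a mean-variance trend. Benjamini-Hochberg adjustment ran over these 14139, and calls were made at 0.05. Log2 shares of chromosome MT FPKM were fitted over its 37 genes without a trend. Single values were tested by exact permutation of the samples, two-sided. Procedures were tested on simulated data, with shifts larger than those of the 6 and with genes drawn independently. That test does not show how changes like those of the 6 would be called. Figures were drawn with matplotlib 3.10.9. All 6 transcripts are named; genes of like pattern are the 2 with the highest correlation. Alternatives were other pseudocounts, filters, scalings, limma options, denominators, a replicate block and leaving out each library. The members and lists, and the 2000 FPKM bound, were chosen with earlier results of these data known. The RefSeq tables used here (assembly GRCr8) held 0 mitochondrial genes and 0 Ensembl identifiers, so no sequence or coordinate is given and lists that need symbols were not analysed here.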

Additional observations from a re-analysis of the deposited data

How the results depend on the processing

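On FPKM, the number of the 6 transcripts that rose was 3 as deposited, 1 with a pseudocount of 0.1, 0 with no filter, 0 with median-of-ratios scaling, 0 after rescaling to the summed nuclear FPKM, and 0 to 4 without single libraries. It was 4 with a pseudocount of 5, with a filter at 5 FPKM, with limma without a trend and with its robust option, where Mt-co3 also passed (limma adjusted p = 0.0215 to 0.0285). The log2 change of Mt-co1 was the same with and without the filter, while its SE was 0.24 and 1.22. The SE of Mt-co1 was 0.56 with median-of-ratios scaling and 0.17 for limma without a trend. These calls thus depend on how the spread of the most abundant genes is estimated. Mt-atp6 turned to -0.020 after rescaling to TPM and to -0.36 with quantile normalization, where 2 transcripts rose and 1 fell. That normalization sets values by rank, so Mt-co1 and Mt-cyb, at ranks 1 and 6 in every library, have a change of 0 by construction.

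On shares of mitochondrial FPKM, 3 rose and 2 fell. Relative to the median mitochondrial gene 0 rose, with Mt-co1 at -0.24, Mt-co2 at -0.27, Mt-co3 at -0.46 and Mt-atp8 at -0.33. Without single libraries 0 to 2 rose and 1 to 2 fell; 0 rose without control replicate 2 or FSGS replicate 3, with 2 at an unadjusted p under 0.05 by limma in each. Mt-cyb turned to 0.055 relative to the other mitochondrial genes and to 0.073 as a share of all genes. The change of Mt-atp6 shrank to -0.037 and -0.020 on these 2 scales. The summed share of the 6 changed by 0.083 on the log2 scale, by 0.34 relative to the other mitochondrial genes, 0.35 as a share of all genes, 0.064 without the most abundant other mitochondrial gene, and 0.073 to 0.094 without single libraries. For changes stated without a reason, the cause was not tested.

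In fits with the replicate block, 4 transcripts rose on FPKM, with Mt-co3 now at limma adjusted p = 0.0433, and on shares 2 rose and 1 fell. Across genes, deviations from the group means correlated between libraries of 1 number at 0.13, 0.03 and 0.02, and not every library matched its own number best, so numbers were not taken as pairs. Leaving out libraries for the ratios between transcripts was chosen after seeing the data; the number of pairs without overlap (11 to 14) cannot drop when a library is left out, so it is no sign of stability. Depth, and its limit on precision, is unknown.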
